A study of Mus musculus with 3 samples.

Results

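CD8 T cells from metastasis-bearing mouse brains were ranked by how much PD-1 protein they carried, and the transcriptomes of the highest and lowest ranked cells were compared. A barcode counted as a CD8 T cell if it passed these filters: at least 500 genes, at most 15% mitochondrial UMIs (unique molecular identifiers, the count of captured transcripts), at most 20000 UMIs, and at least 70% of its mouse hashtag counts on 1 hashtag. It also had to carry at least 2 of the 5 transcripts Cd3d, Cd3e, Cd3g, Trac and Trbc2, at least 1 UMI of Cd8a or Cd8b1, no UMI of Cd4, and more CD8a tags than CD4 tags. Of 12908 barcodes, 4871 passed the quality and hashtag filters and 459 were CD8 T cells. Only hashtags with at least 30 of them entered, which were hashtags 5, 6, 7 and 8 with 125, 95, 55 and 151 cells. Within each hashtag the cells were ordered by the PD-1 tag's share of all antibody tags and cut into 3 parts, and the highest and lowest parts were paired. This gave 140 PD-1-high, 146 middle and 140 PD-1-low cells, so the comparison rests on 280 cells. Hashtags 1, 2, 3 and 4 held 0, 12, 13 and 8 CD8 T cells.

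The cells came from female C57Bl/6 mice, 2 to 3 months old, whose brain metastases were seeded by injecting E0771 mammary carcinoma cells into the carotid artery. Some mice received antibodies against VISTA and PD-L1 every other day from day 3 after the injection and the others did not. Immune cells were enriched on a Percoll gradient, stained with 35 antibodies that each carry a DNA barcode, marked with 1 of 8 hashtags per sample, pooled, and read as 3 libraries (transcripts, antibody tags, hashtags) of the same barcodes. Which of these mice a hashtag stands for is not stated. Because PD-1-high and PD-1-low cells were compared inside each hashtag, both sides of every pair shared whatever treatment that sample had. The labels give 1, 2 and 3 brain hemispheres per sample for the 3 libraries of this 1 capture, so whether a hashtag was 1 animal or several is not settled, and the p-values below reflect only how much these 4 samples varied.

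PD-1, encoded by Pdcd1, is an inhibitory receptor that T cells put on their surface after antigen recognition. Its ligand PD-L1 is carried by tumour and myeloid cells, and engagement dampens signalling from the T cell receptor. Under lasting antigen exposure, as in tumours, CD8 T cells keep PD-1 together with other inhibitory receptors and the transcription factor TOX, while naive and memory cells have little of it.

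The ranking rests on the DNA barcode of the PD-1 antibody, and 3 further antibodies set the lineage. Their barcodes, as deposited, are printed here because these reads, not the transcripts, define the cells.
PD-1 tag: gaaagtcaaagcact
CD8a tag: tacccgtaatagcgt
CD4 tag: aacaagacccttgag
CD3 tag: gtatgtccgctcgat

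The 2 sets were chosen by the PD-1 tag share, so its values are a description and were not tested. In hashtag 5 the median PD-1 tag share was 0.279% in PD-1-low, 0.726% in middle and 1.21% in PD-1-high cells. In hashtag 6 it was 0.361%, 0.736% and 1.2%. In hashtag 7 it was 0.0798%, 0.34% and 1.19%, and in hashtag 8 0.115%, 0.47% and 1.05%. The high cells therefore sat at about the same level in all 4 samples, while the low cells of hashtags 5 and 6 carried more tag than those of hashtags 7 and 8. In counts, the median PD-1-high cell had 26, 27, 22.5 and 24 PD-1 tags in hashtags 5 to 8, and the median PD-1-low cell 6, 9, 2 and 2.

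The background of the tag was read in 444 endothelial cells, which should lack PD-1. Their median share was 0.0922% in all, and 0.132%, 0.0867%, 0.084% and 0.0781% in hashtags 5, 6, 7 and 8. By share, the PD-1-low cells of hashtag 7 were thus at the endothelial level and those of hashtag 8 slightly above it. Those of hashtags 5 and 6 were clearly above it. In counts, the median endothelial cell had 2, 1, 1 and 1 PD-1 tags in hashtags 5 to 8, against 6, 9, 2 and 2 in PD-1-low cells. A share also depends on the other tags that a cell carries. At the upper cut, the last middle cell and the first high cell had shares of 0.952% and 0.955% in hashtag 5, 0.98% and 0.997% in hashtag 6, 0.668% and 0.678% in hashtag 7, and 0.702% and 0.728% in hashtag 8. At the lower cut, the last low cell and the first middle cell had 0.454% and 0.474%, 0.579% and 0.589%, 0.163% and 0.173%, and 0.258% and 0.261%. The cells form a continuous range with no gap at either cut. Regulatory T cells (117 cells) had a median share of 0.481%, and 0.98%, 0.514%, 0.359% and 0.259% in hashtags 5, 6, 7 and 8. Conventional CD4 T cells (157 cells) had 0.439%, and 0.8%, 0.263%, 0.231% and 0.276%. Where they lay relative to the CD8 T cells thus differed between samples, from the range of the high set in hashtag 5 (regulatory T cells) to that of the low set in hashtag 6.

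**Figure D1:**
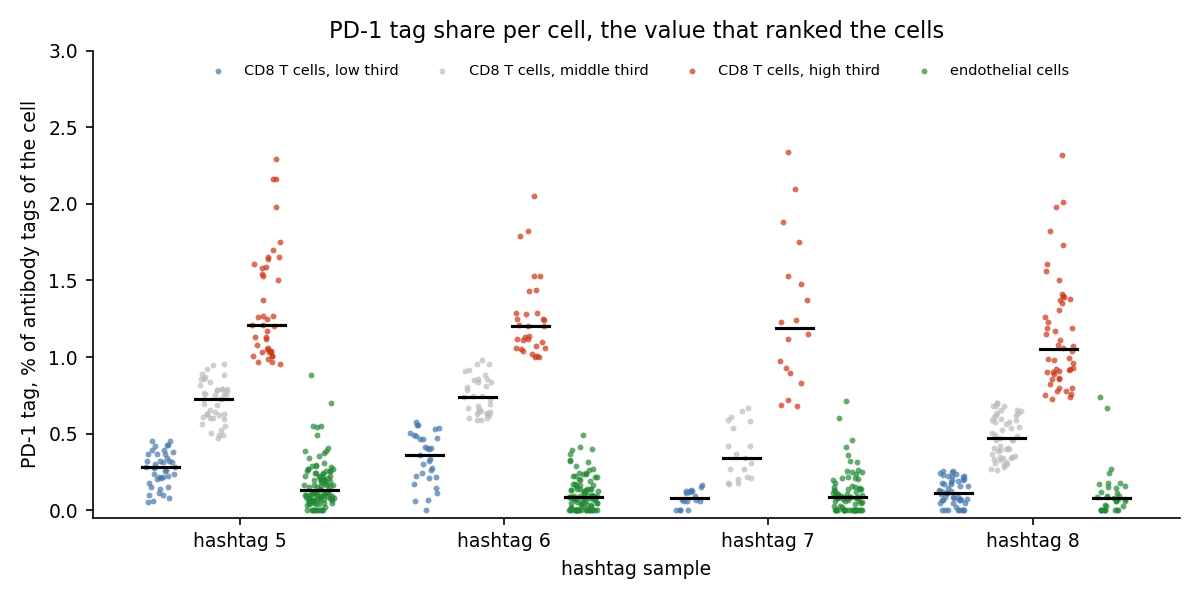
Share of the PD-1 tag among all antibody tags of a cell (vertical axis, percent), for the PD-1-low, middle and PD-1-high CD8 T cells and the endothelial cells of hashtags 5 to 8; each point is 1 cell and each black bar a median. The median of PD-1-high cells lies between 1.05% and 1.21% in every sample, and the PD-1-low cells of hashtag 7 lie at the level of endothelial cells.

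Levels below are CPM, the UMIs of a gene per 1000000 gene UMIs summed over the cells of a set, and values in groups of 4 are for hashtags 5, 6, 7 and 8 in that order. The summed libraries held between 110231 and 499170 UMIs, and the median CD8 T cell held 6106. PD-1-high cells of hashtag 8 were deeper than PD-1-low cells (median 9349 against 5950 UMIs) and more often dividing (40% against 10% of cells with at least 2 UMIs over 7 mitotic genes). In hashtags 5, 6 and 7 the PD-1-high cells were the shallower ones, and dividing cells made up 19.5% against 22%, 6.45% against 12.9%, and 22.2% against 27.8%. Myeloid RNA also moved with the ranking. The summed level of 14 myeloid genes was 5317, 12481, 6368 and 4104 CPM in PD-1-low cells and 963.5, 432.7, 589.7 and 1012 CPM in PD-1-high cells. The low level amounts to 13.4%, 31.4%, 16% and 10.3% of that in 1825 myeloid cells of the same capture (Lyz2 and Csf1r detected, none of the 5 T cell transcripts). Cells with at least 3 UMIs over Lyz2, C1qa, C1qb, C1qc, Cd74 and Apoe numbered 6, 9, 5 and 12 among PD-1-low cells and 6, 2, 0 and 5 among PD-1-high cells. The main results between the extreme sets are therefore also given after removing all such cells and cutting the rest into 3 parts again (118 cells a side), which left the 14 genes at 289.4 to 402.9 CPM in PD-1-low and 308.6 to 706.6 CPM in PD-1-high cells. The part of myeloid RNA in the other results was not tested beyond that.

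Pdcd1, the transcript of the protein that ranked the cells, was higher in PD-1-high cells in all 4 samples. PD-1-low cells had 6.58, 181.9, 120.2 and 102.3 CPM, middle cells 134.5, 436.9, 190.2 and 294.7 CPM, and PD-1-high cells 350.7, 507.1, 562.5 and 354.6 CPM. Each sample rose at both steps, and the lowest PD-1-high value lay above the highest PD-1-low value. The fold change was 2.22 ± 0.41 on the log2 scale (SE; edgeR quasi-likelihood test with Benjamini-Hochberg adjustment over all genes, adjusted p = 0.0128). After thinning each cell to 2000 UMIs, Pdcd1 was detected in 24 of 139 PD-1-low cells (17.3%, exact 95% interval 11.4% to 24.6%), 56 of 145 middle cells (38.6%) and 79 of 138 PD-1-high cells (57.2%, 48.5% to 65.6%). By hashtag the thinned shares were 2.44%, 20%, 22.2% and 26% in PD-1-low and 48.7%, 61.3%, 72.2% and 56% in PD-1-high cells. The intervals pool the cells of all samples and do not cover this spread between samples. Unthinned shares of cells with Pdcd1 were 32.1%, 66.4% and 80%. In thinned endothelial cells it was detected in 0 of 423, which allows a share of up to 0.868%, and in 0.676% of them unthinned, at a median of 5663 UMIs against 6106 in CD8 T cells.

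Transcript and tag did not order the samples alike. Over all its CD8 T cells, hashtag 5 had a median tag share of 0.726%, close to the 0.736% of hashtag 6, but only 151.6 CPM of Pdcd1 against 347.9 CPM there. Hashtags 7 and 8, with tag medians of 0.34% and 0.47%, had 263.2 and 267 CPM. The PD-1-low cells of hashtag 5 showed this most, with 2 UMIs of Pdcd1 over 41 cells while their tag share stood above the endothelial level. The Pdcd1 call depended on hashtag 7, without which the adjusted p was 0.09 (log2 fold change 2.24). Without cells with myeloid RNA the log2 fold change was 1.58 with an adjusted p of 0.0989. The 3 samples that were too small to enter had Pdcd1 at 38.2, 44.4 and 0 CPM in their PD-1-low cells and at 354, 161.9 and 349.9 CPM in their PD-1-high cells (hashtags 2, 3 and 4, with 2 to 4 cells per set), so the direction was the same there.

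Across 3211 genes tested, 23 were higher in PD-1-high cells (0.716%) and 93 were lower (2.9%). In 16 of the 23 higher genes and 79 of the 93 lower ones the 4 PD-1-high values did not overlap the 4 PD-1-low values. The calls were made on these same values, so this is a description, and the share over all genes tested is not given. Without cells with myeloid RNA, 2344 genes were tested, of which 11 were higher (0.469%) and 17 lower (0.725%). Of the 23 higher genes, 8 were called in both (Rgs16, Lag3, Tox, Ubash3b, Cxcr6, Nkg7, AW112010 and Ifi27l2a), and all 21 that could be tested kept their direction. Of the 93 lower genes, 33 could be tested, 29 kept their direction and 8 were called in both. With all cells, 8 of the 23 higher genes (Rgs16, Cxcr6, Lag3, Tox, Nkg7, AW112010, Ubash3b and Ctla4) and 38 of the 93 lower genes, among them Klf2, were called with any 1 of the 4 samples left out and also by DESeq2. Leaving out hashtag 7 gave 9 higher and 53 lower genes, and leaving out hashtag 5 gave 12 and 85. When cells were ranked by the number of PD-1 tags instead of their share, only Lag3 and Rgs16 were higher and only Dnajc15, Gpr18, Klf2 and Tmsb10 were lower.

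The inhibitory receptors rose in part. Of 14 listed, 9 could be tested, 3 were higher (Pdcd1, Lag3 and Ctla4), none was lower, and the median log2 fold change was 0.65, against -0.001 over all genes tested. Lag3, a receptor that binds MHC class II, had 36.2, 84.6, 19 and 29.2 CPM in PD-1-low cells and 173.3, 229.9, 217.7 and 298.5 CPM in PD-1-high cells. The 2 sets did not overlap and the middle cells lay between them in every sample. Its log2 fold change was 2.42 ± 0.34 (SE, edgeR adjusted p = 0.00473), and 2.34 ± 0.41 without cells with myeloid RNA (adjusted p = 0.0231). Lag3 UMIs were found in 27 of 140 PD-1-low and 82 of 140 PD-1-high cells.

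Ctla4, which competes with CD28 for its ligands, had 52.7, 139.6, 158.1 and 105.2 CPM in PD-1-low and 266.1, 439.5, 254 and 270.4 CPM in PD-1-high cells, again without overlap. Its log2 fold change of 1.44 ± 0.24 (edgeR adjusted p = 0.00862) became 0.99 ± 0.30 without cells with myeloid RNA (adjusted p = 0.198). Havcr2, which encodes TIM-3, had 13.2 to 63.5 CPM in PD-1-low and 74.4 to 128.2 CPM in PD-1-high cells and did not pass the test (1.47 ± 0.37, edgeR adjusted p = 0.0597, or 1.59 and 0.141 without cells with myeloid RNA). Tigit had too few counts to test, with at most 5.85 CPM in PD-1-low and 16 to 40.6 CPM in PD-1-high cells. Entpd1 (0.35) and Cd160 (-0.25) also did not pass.

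Tox was the clearest of the transcription factors tied to lasting antigen exposure. It had 52.7, 122.7, 19 and 70.2 CPM in PD-1-low, 102.5, 334.8, 98.6 and 181.2 CPM in middle and 165.3, 453, 299.4 and 308.5 CPM in PD-1-high cells. Every sample rose at both steps, and hashtag 6 had the most Tox in each set. The log2 fold change was 2.10 ± 0.30 (SE, edgeR adjusted p = 0.00473), and 1.74 ± 0.31 without cells with myeloid RNA (adjusted p = 0.0231). Tox UMIs were found in 48 of 140 PD-1-low and 102 of 140 PD-1-high cells. Of 15 factors listed, 11 could be tested and 2 were higher, Tox and Bhlhe40, with a median of 0.67. Bhlhe40, a repressor induced by activation, rose from 158.1 to 287.7 CPM in PD-1-low to 290.3 to 459.8 CPM in PD-1-high cells (0.77 ± 0.18, edgeR adjusted p = 0.0415), and the DESeq2 test, the fit without myeloid RNA and the fits without hashtag 5, 6 or 7 did not call it (adjusted p = 0.148, 0.333, 0.197, 0.0716 and 0.16). Nr4a2, an orphan nuclear receptor induced through the T cell receptor, had 97.3 to 191 CPM in PD-1-low and 268.4 to 398.9 CPM in PD-1-high cells and did not pass (0.99, edgeR adjusted p = 0.0581). Rbpj, the DNA-binding partner of Notch, passed only without cells with myeloid RNA (1.49 ± 0.31, adjusted p = 0.0423, against 1.10 and 0.144 with them).

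Rgs16 had the smallest p-value of the higher genes, and Cxcr6 was called with it under each sample left out. Rgs16, which speeds up the shut-off of G protein signals, had 32.9, 50.8, 37.9 and 78.9 CPM in PD-1-low and 282.2, 169, 190.5 and 498.8 CPM in PD-1-high cells. The sets did not overlap, and the log2 fold change was 2.43 ± 0.26 (SE, edgeR adjusted p = 0.00103), or 2.52 ± 0.30 without cells with myeloid RNA (0.00707). Its UMIs were found in 21 of 140 PD-1-low and 66 of 140 PD-1-high cells. By hashtag these were 3, 8, 2 and 8 PD-1-low and 11, 11, 8 and 36 PD-1-high cells. A single cell held 23 of the 70, 10 of the 25, 5 of the 21 and 18 of the 249 Rgs16 UMIs in PD-1-high cells. Cxcr6, the receptor for CXCL16 found on T cells of tissues, had 85.6, 118.5, 183.4 and 169.5 CPM in PD-1-low and 310.4, 284, 417.3 and 687.1 CPM in PD-1-high cells. These did not overlap either, and the log2 fold change was 1.55 ± 0.20 (edgeR adjusted p = 0.00327), or 1.13 ± 0.21 without cells with myeloid RNA (0.0231). No other of the 7 tested genes of the tissue residency list passed, and the median of that list was -0.01.

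**Figure D2:**
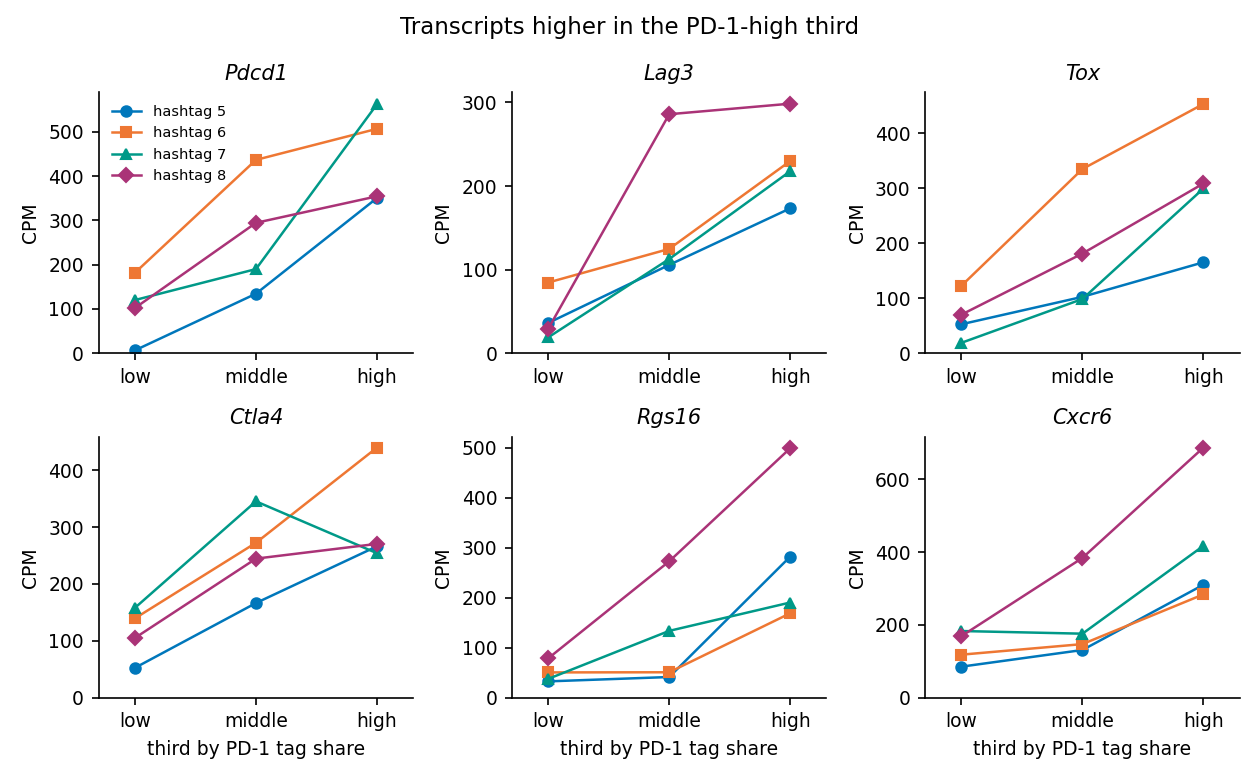
Level of 6 transcripts (vertical axes, CPM on a linear scale from 0) in the low, middle and high set of each hashtag sample (1 line per sample). All 4 lines end above their start in every panel. Pdcd1, Lag3, Tox and Rgs16 are higher at each step in all 4 samples, though some steps are nearly level. Rgs16 of hashtag 6 goes from 50.8 to 51.1 CPM in the first step, and Lag3 of hashtag 8 from 285.9 to 298.5 CPM in the second. Ctla4 of hashtag 7 peaks in the middle cells and Cxcr6 of hashtag 7 rises only in the second step.

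Among genes of the T cell receptor response, 11 of 18 listed could be tested and 2 were higher, Tnfrsf9 and Cd3e, the latter a gene of the CD8 T cell gate. Tnfrsf9, the costimulatory receptor 4-1BB, had 39.5, 67.7, 50.6 and 43.8 CPM in PD-1-low and 350.7, 67.6, 90.7 and 410.7 CPM in PD-1-high cells. The difference thus lay mostly in hashtags 5 and 8, with none in hashtag 6 (2.06 ± 0.48, edgeR adjusted p = 0.0438), and the call was lost without hashtag 5 (0.298), 7 (0.09) or 8 (0.0941) and without cells with myeloid RNA (2.18, adjusted p = 0.147). Ubash3b, a phosphatase that restrains T cell receptor signalling, had 31.6 to 55 CPM in PD-1-low and 117.9 to 178.3 CPM in PD-1-high cells with no overlap (1.73 ± 0.26, edgeR adjusted p = 0.00534, and 1.70 without cells with myeloid RNA).

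Cytotoxic transcripts split. Of 15 listed, 10 could be tested and 1 was higher, Nkg7, a granule membrane protein. Nkg7 had 1360, 2039, 1859 and 2052 CPM in PD-1-low and 2963, 3719, 3393 and 4205 CPM in PD-1-high cells, with no overlap (0.91 ± 0.13, edgeR adjusted p = 0.00524, and 0.61 without cells with myeloid RNA, adjusted p = 0.0367). Gzmb (granzyme B) was higher in 3 of 4 samples and did not pass (0.77 ± 0.34, edgeR adjusted p = 0.357), nor did Prf1 (perforin, 1.22, 0.122) or Gzmk (0.86, 0.203), and none of them passed without cells with myeloid RNA (0.47, 1.00 and 0.34; adjusted p = 0.389, 0.29 and 0.712). Gzma (granzyme A) had 368.7, 452.7, 2428 and 1876 CPM in PD-1-low and 447.5, 412.5, 63.5 and 462.8 CPM in PD-1-high cells. The samples thus disagreed: hashtags 7 and 8 were lower in PD-1-high cells, hashtags 5 and 6 about level. Gzma did not pass with all cells (-1.54 ± 0.65, edgeR adjusted p = 0.325) and was lower without cells with myeloid RNA (-2.61 ± 0.49, adjusted p = 0.0246).

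Ifng, the transcript of interferon gamma, was found in 35 of 140 PD-1-low and 59 of 140 PD-1-high cells. It had 316.1, 135.4, 12.6 and 160.8 CPM in PD-1-low and 2818, 121.7, 90.7 and 356.6 CPM in PD-1-high cells and did not pass (1.61 ± 0.47, edgeR adjusted p = 0.107, and 1.73 with 0.445 without cells with myeloid RNA). Of the 699 Ifng UMIs in the PD-1-high cells of hashtag 5, 451 came from 1 cell. Ccl3 (1.46) and Ccl4 (0.34), chemokines released on activation, and Ccl5 (0.39) did not pass. Of the 8 tested members of the chemokine and cytokine list, Tnf and Cxcl10 were lower and none was higher. Tnf fell from 49.4 to 259.3 CPM to at most 40.1 CPM, and Cxcl10 from 325.9, 583.9, 474.3 and 768.7 CPM to 133, 392.2, 27.2 and 180.3 CPM (log2 fold change -1.75 ± 0.36, edgeR adjusted p = 0.0253). In the myeloid cells of the capture these were at 520.9 and 2289 CPM. The Cxcl10 call was lost without hashtag 5 or 7 (0.0848 and 0.0625) and that of Tnf without hashtag 6 (0.0662). Without cells with myeloid RNA Cxcl10 did not pass (-2.05, edgeR adjusted p = 0.113) and Tnf had too few counts to test. Tnf was then at 13.4, 14.1, 39.3 and 30.6 CPM in PD-1-low and 29.6, 23.7, 0 and 7.71 CPM in PD-1-high cells. It was thus higher in PD-1-high cells of hashtags 5 and 6 and lower in those of hashtags 7 and 8.

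Some genes of naive, memory and progenitor cells were lower. Of 16 listed, 12 could be tested, 4 were lower, Satb1, Klf2 and Il7r among them, none was higher, and the median log2 fold change was -1.37. Klf2, a transcription factor of resting and recirculating T cells, had 622.3, 317.3, 316.2 and 482.3 CPM in PD-1-low, 301, 289.4, 302.9 and 198.6 CPM in middle and 201.6, 162.3, 154.2 and 92.2 CPM in PD-1-high cells. It fell at both steps in every sample and the extreme sets did not overlap (-1.65 ± 0.26, edgeR adjusted p = 0.00595). Il7r, the receptor for the survival cytokine IL-7, had 358.9, 139.6, 139.1 and 219.2 CPM in PD-1-low and 173.3, 33.8, 99.8 and 40.1 CPM in PD-1-high cells. It fell in each sample, though the sets overlapped because hashtag 5 was highest in both (-1.58 ± 0.32, edgeR adjusted p = 0.0235). Satb1, a chromatin organiser of developing and resting T cells, had 381.9, 50.8, 113.8 and 242.6 CPM in PD-1-low and 68.5, 0, 54.4 and 74.1 CPM in PD-1-high cells (-2.08 ± 0.35, edgeR adjusted p = 0.00789). Without cells with myeloid RNA these 3 stayed lower, at -1.84, -1.83 and -2.21 with an adjusted p of 0.0231 each. The Il7r and Satb1 calls were both lost without hashtag 5 (adjusted p = 0.0714 and 0.0816), and that of Il7r also without hashtag 6 (0.0635).

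Tcf7, which encodes TCF-1 of naive and progenitor cells, was lower in 4 of 4 samples and did not pass (-1.94 ± 0.62, edgeR adjusted p = 0.151). Lef1 (-1.92, 0.052), Slamf6 (-0.59, 0.689), S1pr1 (-0.70, 0.591) and Ccr7 (-1.16, 0.599) did not pass either. Tcf7 (-2.05, 0.0924) and Lef1 (-1.96, 0.0726) also did not pass without cells with myeloid RNA.

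**Figure D3:**
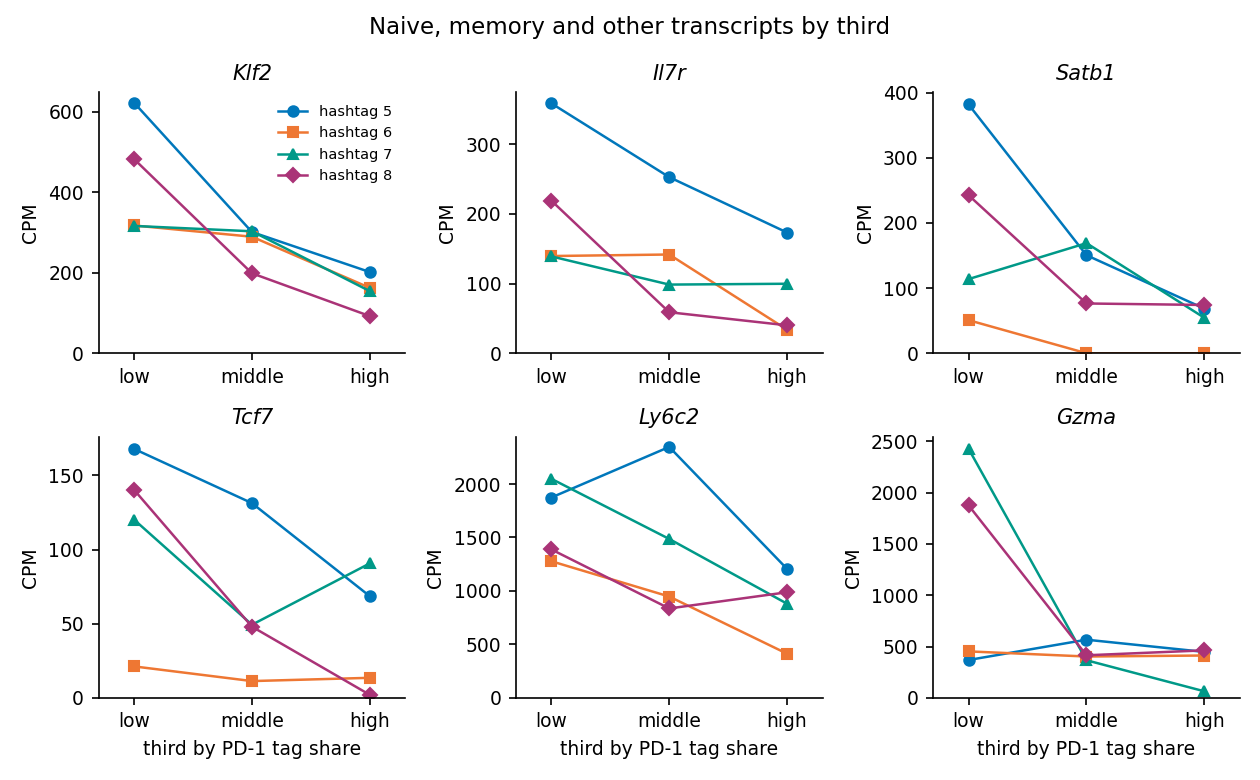
Level of 6 transcripts (vertical axes, CPM on a linear scale from 0) in the low, middle and high set of each hashtag sample (1 line per sample). Klf2 falls at both steps in all 4 samples; Gzma is high only in the low sets of hashtags 7 and 8, at 2428 and 1876 CPM.

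Outside these lists, 5 more lower genes were called with and without cells with myeloid RNA. Ly6c2, a surface antigen of memory CD8 T cells and monocytes, had 1873, 1278, 2049 and 1388 CPM in PD-1-low and 1205, 412.5, 880 and 987.6 CPM in PD-1-high cells, with no overlap (-1.03 ± 0.20, edgeR adjusted p = 0.017), and was not called without hashtag 5, 6 or 7 (0.0511, 0.0532 and 0.0887). The others were Gpr18 (-1.28), an orphan G protein-coupled receptor, Ssh2 (-1.25), a phosphatase that activates cofilin, Dnajc15 (-0.80), a mitochondrial co-chaperone, and Fam241a (-1.85), each of which lost its call without hashtag 5 (edgeR adjusted p = 0.103 to 0.195) and without hashtag 8 (0.0538 to 0.0811), and DESeq2 did not call them (0.0714 to 0.297). Genes that passed without cells with myeloid RNA but not with all cells, and were picked after their values were seen, included Capg (1.35) and Stk39 (1.79), which were higher. Emb (-1.31), Ccr2 (-1.70), Rnf125 (-1.29), Gramd3 (-1.42), Tmsb10 (-0.72), Rps19 (-0.66), Rpl12 (-0.59) and Rps16 (-0.54) were lower there.

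The rest of the higher genes had smaller or less even differences. Uhrf2, a ubiquitin ligase that binds modified cytosine, rose by 1.30, Atxn1 by 1.15, Itgav, an integrin chain, by 1.13, Stat3 by 0.80, Sub1 by 0.78, Sec11c by 0.82 and 1700017B05Rik by 1.61 on the log2 scale. None of these 7 was called without cells with myeloid RNA, without hashtag 5 (edgeR adjusted p = 0.0651 to 0.18) or without hashtag 7 (0.0678 to 0.168). AW112010, an interferon-inducible transcript, had 1376, 1874, 2207 and 1891 CPM in PD-1-low and 2382, 3928, 4409 and 4215 CPM in PD-1-high cells (0.94 ± 0.14, edgeR adjusted p = 0.00525, and 0.69 without cells with myeloid RNA). Ifi27l2a, also interferon-inducible, rose by 0.87 (adjusted p = 0.0189) and by 1.22 without those cells (0.0246), but was not called without hashtag 5 or 7 (0.123 and 0.0714). Of 17 tested interferon-stimulated genes 3 had a positive fold change and Ifi27l2a alone was called higher, while Irf7 (-0.98) and Oasl2 (-2.16) were called lower with all cells, and the median of the list was -0.30. The Irf7 call was lost without hashtag 6 or 7 (0.0959 and 0.102) and that of Oasl2 without hashtag 5, 7 or 8 (0.102, 0.0642 and 0.0913). After removing cells with myeloid RNA, Irf7 did not pass (-0.50, 0.445) and Oasl2 had too few counts to test. Igfbp7, a secreted binding protein, had the largest fitted fold change of the higher genes (3.42). That value rests on single cells: in hashtag 7 all 123 UMIs of the PD-1-high cells came from 1 cell, in hashtag 8 141 of 147 UMIs came from 1 cell, and hashtag 6 had 0 UMIs in both sets. Without hashtag 7 or 8 the gene had too few counts to test.

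The lineage genes moved too. Of 10 genes of CD8 T cell identity, all tested, Cd3e, Cd3g and Cd8a were higher (0.71, 0.82 and 0.82 on the log2 scale), and the median was 0.48. All 3 lost their call without hashtag 7 (edgeR adjusted p = 0.127, 0.0576 and 0.124). Without cells with myeloid RNA none of the 10 passed the edgeR test, 4 had an unadjusted p under 0.05, and the median was 0.19. All 3 are transcripts that the gate read in every cell, so these values are given as a description. The gate did not use the PD-1 tag.

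Most of the lower genes had more RNA in myeloid cells than in PD-1-high cells. Of the 93, 61 were at least 10 times as high in the 1825 myeloid cells as in the PD-1-high cells, and 88 were higher there. These genes are low in PD-1-high cells by selection, and the share over all genes tested is not given. Klf2 is among the 88 (464.6 CPM against a mean of 152.6 CPM), though it stayed lower without cells with myeloid RNA (-1.84). Of 14 myeloid markers, 11 could be tested and 7 were lower, with a median of -2.91. The MHC class II gene H2-Ab1 had 283.1, 1379, 423.7 and 181.2 CPM in PD-1-low and 8.06, 20.3, 9.07 and 18 CPM in PD-1-high cells (-4.78 ± 0.38, edgeR adjusted p = 0.000278), against 2940 CPM in myeloid cells. H2-Aa (-4.19), the invariant chain gene Cd74 (-4.36) and the lipid carrier gene Apoe (-4.37) fell likewise. Outside the lists, the largest decreases included Tgfbi (-4.70), Cd14 (-4.55), H2-Eb1 (-4.53), Il1b (-4.20), Cxcl2 (-3.51), Spi1 (-3.43), Mpeg1 (-3.34), Fcgr4 (-3.03) and Cd300c2 (-3.00), of which Cxcl2, Fcgr4 and Cd300c2 were not called without hashtag 7 (edgeR adjusted p = 0.0858, 0.0675 and 0.0789). Apart from Klf2, none of the genes named here had enough counts to be tested without cells with myeloid RNA. H2-Ab1 was then at 13.4, 28.3, 19.6 and 13.1 CPM in PD-1-low and 9.88, 23.7, 10.9 and 12.9 CPM in PD-1-high cells.

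Immediate early genes are induced by both dissociation and stimulation. Of 12 tested genes of the immediate early and heat shock list, Fos, Jun, Dusp1 and Zfp36 were lower. Fos had 520.2, 1007, 973.9 and 678.1 CPM in PD-1-low and 201.6, 142, 81.6 and 194.3 CPM in PD-1-high cells (-2.31 ± 0.30, edgeR adjusted p = 0.00327), and 2776 CPM in myeloid cells. Dusp1 was not called without hashtag 7 (0.0529). Without cells with myeloid RNA none of the list passed the edgeR test and 2 of 11 had an unadjusted p under 0.05. Fos was at -0.44 there, and Zfp36 and Dusp1 changed sign, from -1.99 to 0.45 and from -1.17 to 0.47.

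**Figure D4:**
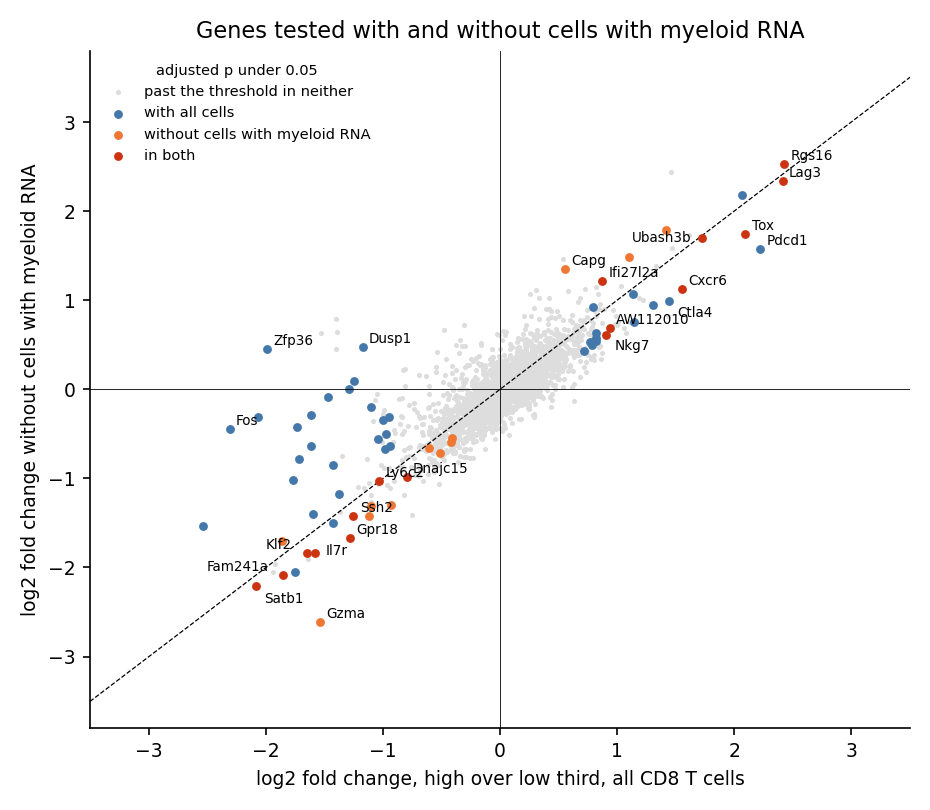
Log2 fold change of PD-1-high over PD-1-low cells with all CD8 T cells (horizontal axis) and without cells with myeloid RNA (vertical axis), 1 point per gene tested in both; colours mark the fit in which a gene passed an adjusted p of 0.05, and the dashed line marks equal values. Lag3, Rgs16, Tox, Klf2, Il7r and Satb1 lie near the line, while Fos, Zfp36 and Dusp1 move to or across 0.

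Markers of other cell types were read in the same sets. The summed levels of the listed markers were at most 182.3 CPM in PD-1-high and 35.1 CPM in PD-1-low cells for CD4 and regulatory T cells (Cd4 itself is 0 by the gate), at most 20.2 and 31.6 CPM for carcinoma cells, and at most 14 and 114.2 CPM for neutrophils. Endothelial markers reached 426.4 CPM in the PD-1-high and 689.3 CPM in the PD-1-low cells of hashtag 7, and microglial markers 898.1 CPM in its PD-1-high cells, while in hashtag 5 microglial markers were at 398.4 CPM in PD-1-low and 64.5 CPM in PD-1-high cells. NK cell markers lay between 215.8 and 499.8 CPM in the 8 sets. Dendritic cell markers reached 276.6 CPM in the PD-1-low cells of hashtag 5, and gamma-delta T cell markers 226.8 CPM in the PD-1-high and B cell markers 170.7 CPM in the PD-1-low cells of hashtag 7. Their part in the results was not tested. Of the remaining lists, none of the tested genes of glycolysis (9), MHC class I presentation (11), short-lived effector cells (6) or the cell cycle (11) passed edgeR or DESeq2, and 0 had an unadjusted edgeR p under 0.05. Cell cycle genes did not move alike across samples: their summed level fell from 2881 to 1496 CPM in hashtag 5 and rose from 1304 to 6829 CPM in hashtag 8. Of 84 ribosomal protein genes none passed edgeR or DESeq2 with all cells (6 at an unadjusted edgeR p under 0.05, median -0.18). Without cells with myeloid RNA 3 of 82 were lower, 49 had an unadjusted edgeR p under 0.05, and the median was -0.29. Of 7 tested NK receptor genes 2 were lower, the signalling adapters Fcer1g (-3.40) and Tyrobp (-3.18), which stood at 4549 and 3398 CPM in myeloid cells. The Fcer1g call was lost without hashtag 7 (edgeR adjusted p = 0.0576).

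The middle cells show at which step genes differed. Between middle and PD-1-low cells, 2 of 3616 genes were higher (0.0553%) and 13 lower (0.36%). The higher ones were Tox (1.34, edgeR adjusted p = 0.045) and Ctla4 (1.18, adjusted p = 0.0216). Between PD-1-high and middle cells, 1 of 2942 genes was higher (0.034%) and 11 were lower (0.374%). The higher one was Cxcr6 (1.02, edgeR adjusted p = 0.0146), and Cd74 and Il1b were among the lower ones. These 15 and 12 calls depended on single samples. The counts became 43, 1, 4 and 0 between middle and low, and 15, 4, 5 and 15 between high and middle, without hashtags 5, 6, 7 and 8. Where no gene was called, without hashtag 8, 164 of 2934 genes had an unadjusted edgeR p under 0.05. These comparisons share the middle cells, and whether a gene's steps differ was not tested.

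The other antibody tags were compared by their share of all tags except PD-1. They are a description without a test, because they make up the denominator of the ranking. CD86 and CD38 differed most upwards: CD38 took 1.1%, 2.31%, 1.38% and 1.72% of tags in PD-1-low and 1.64%, 3.32%, 5.81% and 4.09% in PD-1-high cells, and CD86 1.1%, 1.38%, 1.57% and 1.4% against 1.62%, 2.28%, 6.01% and 3.91%. The CD8a tag rose in the same samples, from 3%, 3.17%, 2.27% and 3.99% to 4.78%, 3.82%, 6.66% and 8.1%. CD25, CD3 and CD45 were also higher in all 4 samples, with mean log2 ratios of 0.50, 0.37 and 0.07. The transcript Cd86 was at 46.1 to 84.6 CPM in PD-1-low and 28 to 74.4 CPM in PD-1-high cells (-0.53, edgeR adjusted p = 0.529), and Cd38, at 16.5, 63.5, 6.32 and 26.3 CPM in PD-1-low and 36.3, 27, 9.07 and 42.1 CPM in PD-1-high cells, had too few counts to test.

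Of the tags, 9 took a lower share of the tags summed over PD-1-high cells in all 4 samples, and most are myeloid. CD11b fell from 1.72%, 4.17%, 4.46% and 3.36% to 0.918%, 0.406%, 0.403% and 1.51%, a mean log2 ratio of -2.22 ± 1.38 (SD over 4 samples). CD172a, CD64, PD-L1, I-A/I-E (MHC class II), F4/80, CD83 and CX3CR1 had mean log2 ratios of -1.42, -1.28, -0.97, -0.94, -0.63, -0.60 and -0.27. Summed tags can rest on a few cells. Median I-A/I-E tags per cell were 24, 44, 22 and 15 in PD-1-low and 29, 38, 36.5 and 18.5 in PD-1-high cells. Median CD11b tags were 8, 7, 20.5 and 8 against 6, 6, 6 and 10.5. CD64 and CD83 had few tags, 117 and 96 over all PD-1-low and 51 and 66 over all PD-1-high cells. Ly6C, which T cells also carry, fell from 17%, 11.2%, 21.9% and 18.7% to 12.1%, 10%, 13.6% and 10.8%. CD103 and CD4 went up in 2 samples and down in 2. CD335, CXCR4 and KLRG1 had 0 counts in these cells.

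**Figure D5:**
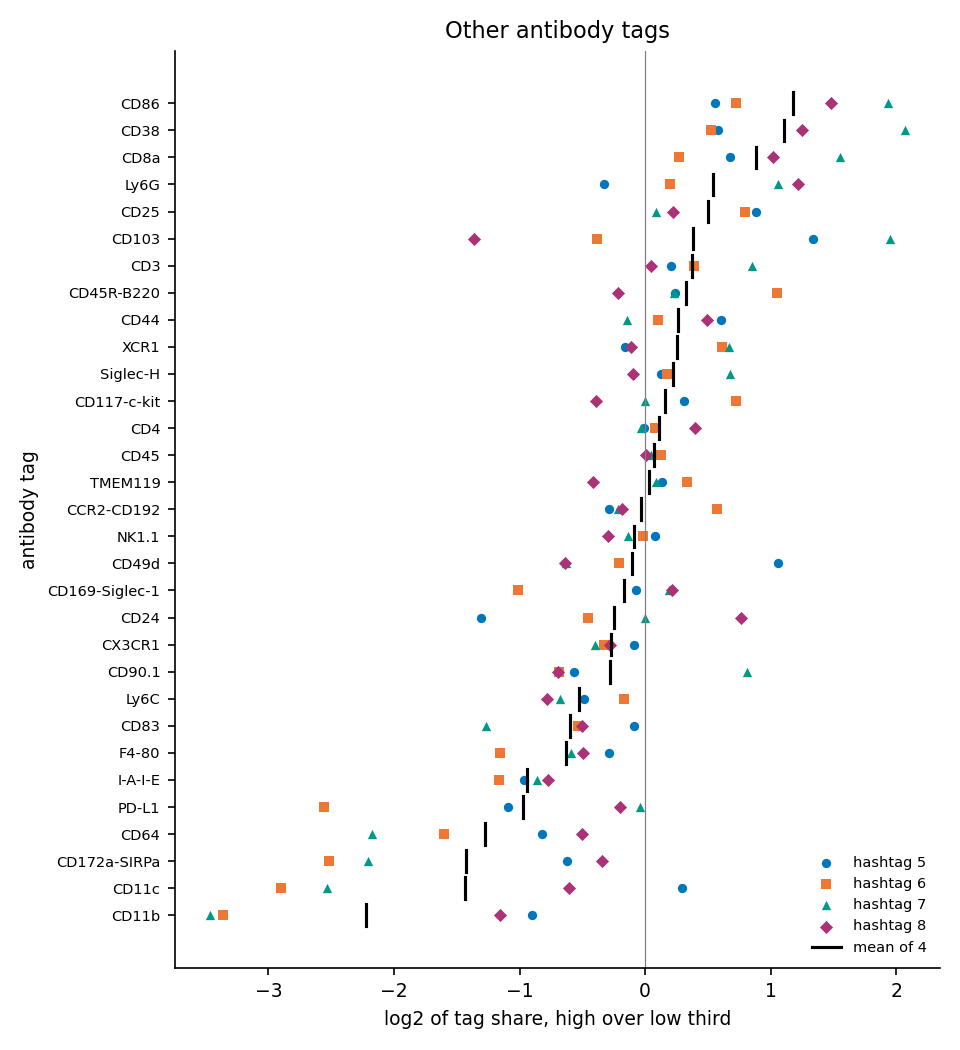
Log2 ratio of each antibody tag's share, PD-1-high over PD-1-low cells (horizontal axis), for hashtags 5 to 8 (points) with the mean of 4 (black bar). CD86, CD38 and CD8a are above 0 in every sample, and CD11b is the lowest with a mean of -2.22.

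The regions upstream of the higher genes were searched for 4 short motifs on either strand, as a description. RefSeq start sites (build GRCm38.p6) matched 17 of the 23 higher genes, and the 250 bases before each start were read. The NFAT core TGGAAA, bound by a factor that calcium signals activate in T cells, was present for 8 of 17 (47.1%), against 20.9% of 27025 genes. The AP-1 motif TGANTCA was present for 1 (5.88%, against 7.82%), the NR4A motif AAAGGTCA for 0 (against 1.55%) and the TCF motif CTTTGAT for 1 (5.88%, against 3.72%). The 8 were AW112010, Cd3e, Cd3g, Ctla4, Cxcr6, Sub1, Tnfrsf9 and Ubash3b, and a match of 6 letters is not a measured binding site. The 17 genes had 19 upstream regions, and the 27025 genes are not limited to the 3211 tested for expression. Whether the motif is enriched among the higher genes was not tested. Of the genes described most above, 3 upstream regions are printed 5′ to 3′ on the gene's own strand, with the NFAT core or its reverse complement in capitals. They are Ctla4 (chr1:60908775-60909024, plus strand), Cxcr6 (chr9:123806227-123806476, plus strand) and Pdcd1 (chr1:94052554-94052803, minus strand), of which Pdcd1 holds none of the 4 motifs in this window.
Ctla4 upstream: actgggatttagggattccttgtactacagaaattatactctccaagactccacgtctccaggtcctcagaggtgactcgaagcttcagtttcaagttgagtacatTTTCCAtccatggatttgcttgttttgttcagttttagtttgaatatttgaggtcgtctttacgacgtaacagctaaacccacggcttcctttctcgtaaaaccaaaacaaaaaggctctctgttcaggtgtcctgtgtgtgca
Cxcr6 upstream: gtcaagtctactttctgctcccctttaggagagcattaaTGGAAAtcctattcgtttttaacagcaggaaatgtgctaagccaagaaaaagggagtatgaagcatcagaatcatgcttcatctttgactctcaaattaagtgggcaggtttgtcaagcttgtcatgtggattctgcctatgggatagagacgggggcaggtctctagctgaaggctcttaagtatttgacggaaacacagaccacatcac
Pdcd1 upstream: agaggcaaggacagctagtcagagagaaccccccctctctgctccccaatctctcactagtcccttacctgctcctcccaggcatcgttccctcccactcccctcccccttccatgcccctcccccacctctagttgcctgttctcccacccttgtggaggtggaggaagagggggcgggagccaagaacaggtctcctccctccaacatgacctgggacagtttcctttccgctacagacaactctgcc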

How the data were processed

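The deposited matrix holds raw UMI counts per feature and barcode, and per the submitters' processing notes the authors used Cell Ranger 3.1 and Seurat 3.1.1 with build mm10. The sources used here do not name the gene annotation. Depth was 1076 to 19925 UMIs per CD8 T cell, and exact binomial intervals cover counting error only. Counts were summed per hashtag and set and tested with edgeR 4.0.16 (R 4.3.3; TMM, filterByExpr, quasi-likelihood test, hashtag as block, Benjamini-Hochberg threshold 0.05). The block follows from the cells' origin: both sets come from the same hashtag sample. High and low sets of the same hashtag deviated from the set means with correlations of 0.126, 0.0894, 0.0234 and -0.026 (hashtags 5 to 8). SE is the log2 fold change divided by the root of F. With 4 pairs a permutation test of single values cannot reach 0.05, so none was run.

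The members, gene lists and rules were chosen with earlier results of these data known. Genes were named as follows: Pdcd1, a core list, up to 4 called members per list, and outside the lists the 10 largest changes in each direction with the same sign in all samples and at least 20 CPM on the higher side. Some genes the rule names are not reported here. The tag rankings by CD45 and without myeloid tags and the minimum of 8 cells were added after seeing the data. No doublet caller was run: the hashtag filter removes doublets between samples, not within one. A gene whose symbol occurs more than once in the files was not matched to a list. DESeq2 1.42.0 and limma 3.58.1 served as alternatives. On simulated counts for highest over lowest (2988 genes), edgeR recovered 52.9% of 87 2-fold and 100% of 86 4-fold changes, with 8 false among 140 calls. Changed genes that did not pass the filter on low counts are not in these shares. The counts were drawn per set from the model that edgeR assumes, so levels resting on single cells were not simulated. Sequences are from the deposited tag list and from RefSeq.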

Additional observations from a re-analysis of the deposited data

Results flagged for a closer look

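In groups of 4 hashtag samples, 1 sample stood apart from the other 3 in 5 of 102 groups tested, about what chance gives at 1 in 20. The log2 ratio of PD-1-high over PD-1-low cells was 0.68 for AW112010 in hashtag 5, against 1.00 to 1.06 in the others. For Dnajc15 it was -0.51 in hashtag 7, against -0.86 to -0.84. For Cd274, which encodes PD-L1, it was -2.43 in hashtag 7, against -1.42 to -1.23. For the CCR2 tag it was 0.57 in hashtag 6, against -0.28 to -0.18, and for the CD90.1 tag 0.81 in hashtag 7, against -0.70 to -0.56.

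The matrix also holds counts for 6 human hashtags, which no comparison used. At least 1 such count was present in 34% of CD8 T cells (156 of 459), against 34.7% of all barcodes. Cells with any had a median of 2 such counts, against a median of 930 mouse hashtag counts per CD8 T cell.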

How the results depend on the processing

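Over 21 alternatives the Pdcd1 log2 fold change ranged from 1.25 to 2.76 and passed the threshold in 17. It did not pass without hashtag 7, without cells with myeloid RNA (1.58), when ranking by tag count (1.25, adjusted p = 0.0602) or by PD-1 over CD45 tag (2.05, adjusted p = 0.055); leaving out 1 sample gave 1.76 to 2.56. Counts of higher genes within 1.5 times the 23 came from DESeq2, no TMM factors, no replicate block (23), comparing the upper with the lower 50% or 25% of cells, centred log ratio, 90% hashtag purity, no dividing cells, no UMI maximum, the 8-cell minimum, CD45 and per-cell CPM. The genes were not always the same: these settings shared from 9 (no UMI maximum, 19 called) to 23 (no TMM factors, 28 called) of the 23. Higher genes numbered 103 without the filter on low counts, 2 by tag count, 12 after thinning, 11 without myeloid RNA, 14 without myeloid tags in the total, and 9 to 28 leaving out 1 sample. Lower genes numbered 331 without the filter, 61 comparing 50% with 50%, 45 comparing 25% with 25%, 4 by tag count, 56 at 90% purity, 20 after thinning, 51 without dividing cells, 17 without myeloid RNA, 224 without a UMI maximum, 48 with the 8-cell minimum, 34 by CD45, 31 without myeloid tags, 56 with per-cell CPM, 99 without the replicate block, and 53 to 88 leaving out 1 sample. Genes changed between middle and low numbered 15, 3 without the replicate block and 0 to 43 leaving out 1 sample; between high and middle, 12, 0 without the block (124 at an unadjusted p under 0.05) and 4 to 15. The alternatives without myeloid RNA and after thinning tested fewer cells or counts; otherwise the cause was not tested. Ranking by tag count turned the direction of Cxcl10 (0.65), Tyrobp (0.0493), Zfp36 (0.30), Dusp1 (0.0853), Apoe (0.61), Tgfbi (0.0838), Il1b (0.12), Cxcl2 (0.99), Mpeg1 (0.37) and Fcgr4 (0.55), none of them past the threshold, and removing myeloid RNA turned Zfp36 (0.45) and Dusp1 (0.47). Of the other values of named genes under alternatives, 1358 kept their side of the threshold, 307 fell below it and 101 rose past it. Direction was compared only for genes past the threshold in either fit. Depth left Tigit and Cd38 untested.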
